A study of Mus musculus with 9 samples.

Results

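Adam28, Adamdec1 and Adam7 are 3 protein-coding genes that lie side by side on mouse chromosome 14. They were taken by symbol from the histone count files and are 3 of 26611 named genes in 27179 rows. The group was selected on measured values: the H3K27me3 counts of Adam28, which were low in the deleted library and high again in the rescue library. The H3K27me3 values of the 3 genes are therefore a description, with no test.

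Members of the ADAM family carry a metalloproteinase domain followed by a disintegrin domain, and many cut proteins off the cell surface. Human ADAM28 is a protease of lymphocytes and some epithelia that binds the integrin encoded by ITGA4 and ITGB1 and cleaves IGFBP3 and the IgE receptor CD23. ADAMDEC1 is a secreted relative with a shortened disintegrin part, found in human macrophages, dendritic cells and gut. ADAM7 is made in the epididymis, passes to sperm and lacks the zinc-binding motif that a working metalloproteinase needs. H3K27me3 is laid down by Polycomb repressive complex 2 over silent genes, often across domains of several neighbours, whereas H3K4me3 marks the starts of active genes.

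The cells were mouse MLL-ENL leukemia cells, in which a fusion of the genes Kmt2a and Mllt1 drives the disease. Chromatin immunoprecipitation with sequencing was done for H3K27me3, for H3K4me3 and, with the M2 antibody, for the Flag tag, in 3 lines. The rescue line is labelled ΔERT2 + Hhex-F and carries the deletion together with Flag-tagged Hhex; the deleted line is labelled ΔERT2, and the floxed line is labelled fl. Which gene is floxed is read from the series title alone, which names Hhex and asks about PRC2 repression that depends on it. Sex, age, the number of animals and whether a line is a clone or a pool are not in the labels.

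Each of the 9 combinations has 1 library, so differences between lines carry no check against replicates and were not tested. Named genes held 4203349 (rescue), 2535576 (deleted) and 2444487 (floxed) H3K27me3 counts, and 395133, 420701 and 645240 H3K4me3 counts in the same order. CPM scales counts to a total of 1000000. All intervals are 95% intervals and cover counting error only. A gene was called lower or higher by a size rule: a CPM ratio of at least 1.5 in that direction whose exact interval excluded 1, among the 10604 genes averaging 20 or more H3K27me3 counts over the 3 libraries, which are the measured genes below.

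Over the whole span of Hhex there were 487 H3K27me3 counts in rescue, 385 in deleted and 332 in floxed, which does not check the deletion, since the deleted part is not given. The Hhex window held 130, 68 and 60 H3K4me3 counts. Counts in this paragraph are not scaled to the library totals, which were largest for rescue in H3K27me3 and for floxed in H3K4me3. For H3K4me3, 9 myeloid progenitor markers summed to 409 counts in rescue, 419 in deleted and 696 in floxed, and 1 of them, Ptprc, was at 0 in all 3. By CPM ratio, some of these markers differed between the lines. Elane, a granule protease gene, had 58, 28 and 91 H3K4me3 counts, a CPM ratio of 0.472 (0.297 to 0.728) for deleted over floxed and 2.21 (1.38 to 3.6) for rescue over deleted. Mpo, the myeloperoxidase gene, had 483, 6 and 5 H3K27me3 counts, or 48.6 (22.1 to 133) for rescue over deleted, and 32, 49 and 89 H3K4me3 counts. In H3K27me3, the receptor genes Kit and Csf1r had 187, 260 and 255 counts and 32, 42 and 38 counts. Rescue over deleted was 0.434 (0.358 to 0.526) at Kit and 0.460 (0.281 to 0.746) at Csf1r. Rescue over floxed was 0.426 (0.351 to 0.517) and 0.49 (0.296 to 0.805). Windows of 6 B-cell markers summed to 21, 33 and 37 counts, most of them at Ebf1 with 17, 25 and 32. T-cell markers summed to 15, 12 and 9, epididymal epithelium markers to 8, 20 and 18 and neuron markers to 16, 7 and 7. Macrophage markers summed to 101, 140 and 201 H3K4me3 counts, of which Mertk held 67, 82 and 145; 1 of the 5 was at 0 in deleted and 2 were in floxed. The part of other cells, or of these marker differences, in the results below was not tested.

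The 3 genes span 159 kb on chromosome 14 (build mm10, positions from RefSeq assembly GRCm38.p6). Adam7 lies at chr14:68497336-68533689. Adamdec1 follows 29.7 kb further on at chr14:68563387-68582072. Adam28 follows after another 22.9 kb at chr14:68604998-68655889. H3K27me3 was counted over 36354, 18686 and 49816 bp for these genes, and levels are compared between genes only per kb.

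H3K27me3 at Adam28 was low in the deleted library and high in both others. Over the gene there were 1607 counts in rescue, 108 in deleted and 774 in floxed. As densities these were 7.67 CPM per kb (7.30 to 8.06) in rescue, 0.855 (0.701 to 1.03) in deleted and 6.36 (5.92 to 6.82) in floxed. Adam28 was picked for this pattern, and each value rests on 1 library, so the gap is a description only. Fewer cells with the mark and less of the mark per cell cannot be told apart in bulk chromatin. Among measured genes ranked by density, Adam28 stood at percentile 89.1 in rescue, 32.9 in deleted and 85.7 in floxed. The median density of measured genes was 1.6, 1.75 and 1.59 CPM per kb in these libraries, so Adam28 in the deleted library was below the middle of them.

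Adamdec1, the gene next to it, followed the same course with a smaller range. It had 418 counts in rescue, 77 in deleted and 313 in floxed. Its density was 5.32 CPM per kb (4.82 to 5.86) in rescue, 1.63 (1.28 to 2.03) in deleted and 6.85 (6.11 to 7.66) in floxed. In rescue and floxed this placed it at percentiles 83.5 and 86.8 of measured genes, and in deleted at percentile 48.0, close to the middle. Per kb, Adamdec1 and Adam28 had overlapping intervals in the floxed library, while in rescue Adam28 was the denser gene and in deleted Adamdec1 was.

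Adam7, the outermost gene on the other side, did not share this course. It had 225 counts in rescue, 156 in deleted and 121 in floxed. Its density was 1.47 CPM per kb (1.29 to 1.68) in rescue, 1.69 (1.44 to 1.98) in deleted and 1.36 (1.13 to 1.63) in floxed, and all 3 intervals overlapped. It stood at percentiles 47.5, 49.0 and 45.7 of measured genes. In the deleted library Adamdec1 and Adam7 had nearly the same density, with Adam28 below both.

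**Figure D1:**
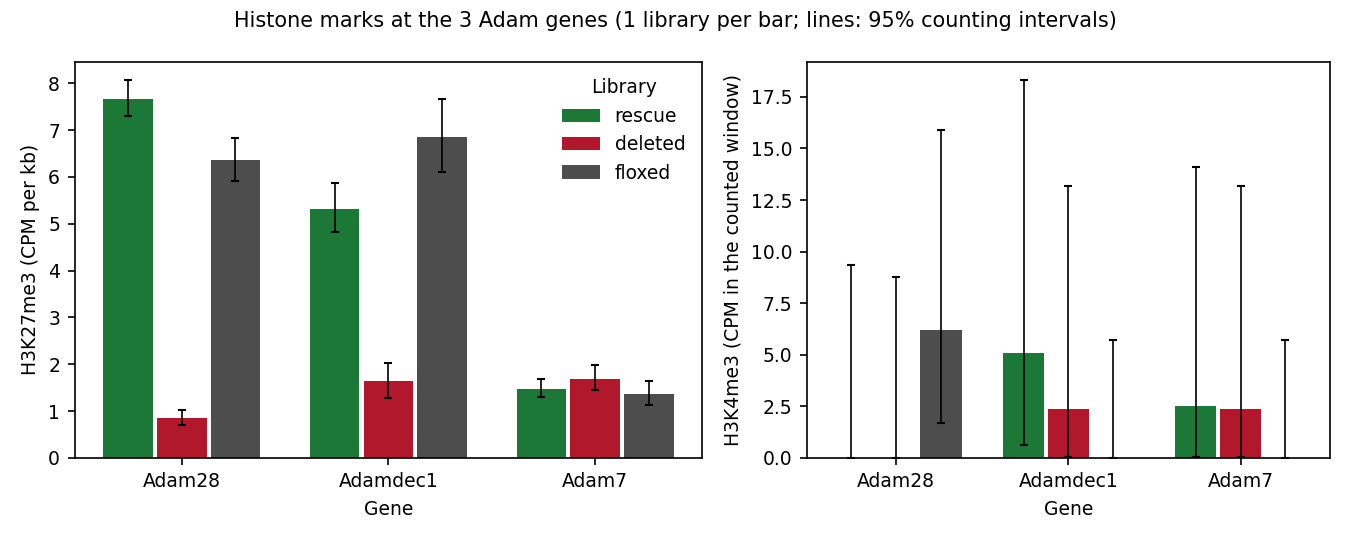
Left, H3K27me3 density (CPM per kb) over Adam28, Adamdec1 and Adam7 in the rescue, deleted and floxed libraries; right, H3K4me3 (CPM in the counted window). Bars are single libraries and lines are 95% counting intervals. Adam28 stood at 7.67, 0.855 and 6.36 CPM per kb of H3K27me3, whereas Adam7 stayed between 1.36 and 1.69.

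In deleted against floxed, 2 of the 3 genes were lower in H3K27me3 by the size rule, beside 5.39% of all measured genes lower and 4.72% higher. Since the group was picked in this comparison, nothing is read from that count. The ratio was 0.135 (0.109 to 0.165) at Adam28, a log2 ratio of -2.88, and 6 of 10604 measured genes had a lower one. It was 0.237 (0.182 to 0.305) at Adamdec1, a log2 ratio of -2.06, with 11 genes below it. At Adam7 it was 1.24 (0.974 to 1.59), a log2 ratio of 0.31, which did not meet the rule. The median log2 ratio of all measured genes was 0.02.

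In rescue against deleted, the same 2 genes were higher, beside 7.07% of measured genes higher and 11.3% lower. The ratio was 8.98 (7.38 to 11.0) at Adam28, with 40 measured genes above it, and 3.27 (2.56 to 4.23) at Adamdec1, with 126 above it. At Adam7 it was 0.870 (0.706 to 1.07). Adam28 was picked in this comparison as well, so nothing is read from the count of 2 here either. This comparison also shares the deleted library with the one before. Its split over all genes depends on the scaling: 1196 genes were lower and 750 higher with library totals, and 4048 and 260 with libraries scaled to 30 housekeeping genes. That scaling rests on 276 rescue, 123 deleted and 116 floxed counts. It moves the all-gene median on the log2 scale to -0.49, where library totals give -0.06. Under it Adam28 and Adamdec1 stayed higher, at ratios of 6.63 and 2.42, and Adam7 became lower by the rule, at 0.643.

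In rescue against floxed, none of the 3 genes met the size rule, beside 8.05% of measured genes lower and 5.72% higher. Adam28 had a ratio of 1.21 (1.11 to 1.32) and Adam7 one of 1.08 (0.863 to 1.36), and with housekeeping scaling both lay under 1, at 0.873 and 0.782. Adamdec1 had a ratio of 0.777 (0.669 to 0.902) and was lower by the rule, at 0.561, with that scaling. The all-gene median here was -0.52 with it and -0.05 with library totals. Over all genes it gave 4063 lower and 198 higher, where library totals gave 854 and 607. The side of 1 on which Adam28 and Adam7 lay therefore depends on the scaling, and the Adam7 interval with library totals included 1.

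**Figure D2:**
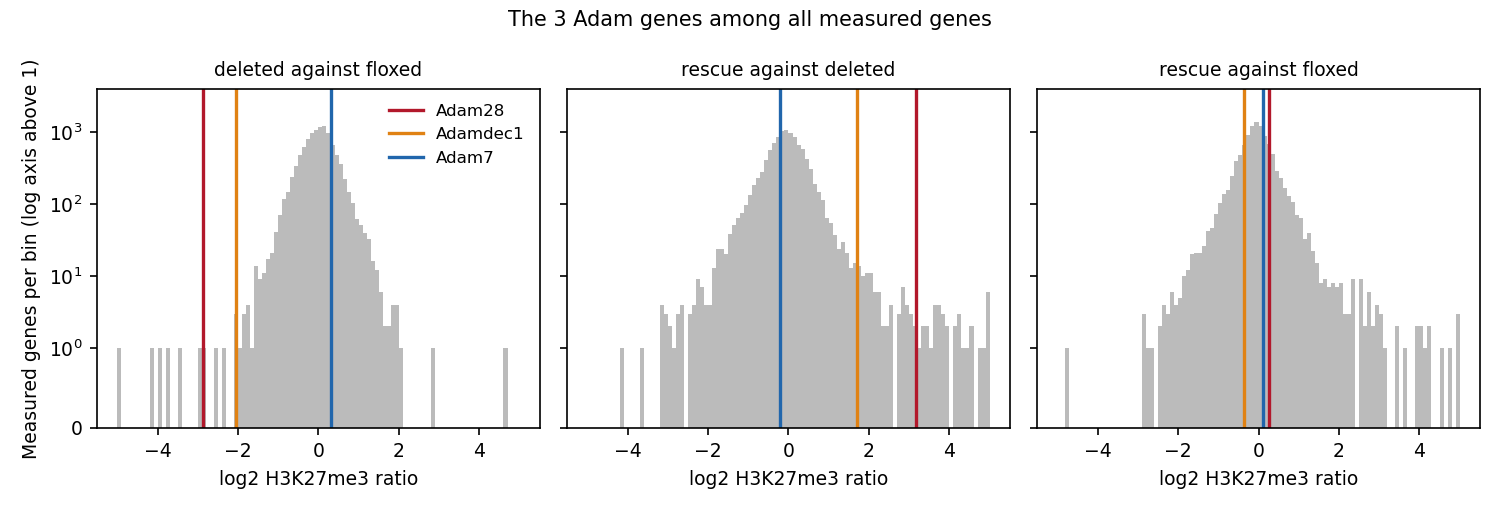
Number of measured genes per bin of log2 H3K27me3 ratio in the 3 comparisons (grey, log axis above 1, values past 5 in either direction drawn in the end bins), with lines at Adam28, Adamdec1 and Adam7. Adam28 lay at -2.88 in deleted against floxed and at 3.16 in rescue against deleted; in rescue against floxed all 3 genes lay between -0.36 and 0.27.

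Shares within a library need no scaling between libraries. They rest on counts not divided by gene length, so each share is compared between libraries and not between genes. Of the H3K27me3 counts over the 3 genes, Adam28 held 71.4% (69.5% to 73.3%) in rescue, 31.7% (26.8% to 36.9%) in deleted and 64.1% (61.3% to 66.8%) in floxed, with exact Clopper-Pearson intervals. Adam7 held 10% (8.79% to 11.3%) in rescue, 45.7% (40.4% to 51.2%) in deleted and 10% (8.38% to 11.8%) in floxed. The share of Adamdec1 moved least, at 18.6% (17.0% to 20.2%), 22.6% (18.3% to 27.4%) and 25.9% (23.5% to 28.5%). A share also depends on the counts of the other genes, so a steady share is not a steady level. The CPM ratio for deleted over floxed was 0.237 at Adamdec1 and 1.24 at Adam7. Per kb, Adamdec1 held the largest part in floxed, at 47%, beside 43.6% for Adam28.

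**Figure D3:**
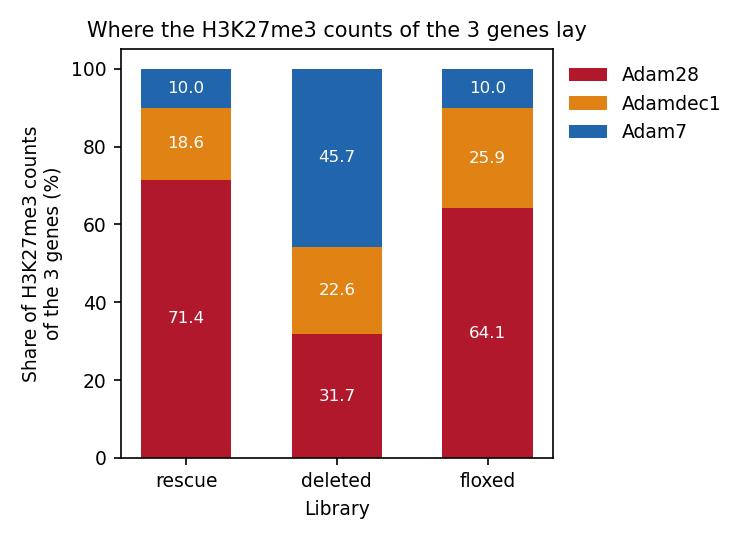
Share of the H3K27me3 counts of Adam28, Adamdec1 and Adam7 held by each gene, in percent, in the rescue, deleted and floxed libraries. Adam7 took 45.7% in deleted, and 10% in rescue and in floxed. Counts are not divided by gene length, and each share also depends on the counts of the other genes.

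In deleted against floxed, the ratio at Adam28 was 0.567 times (0.407 to 0.793) the ratio at Adamdec1, and that at Adamdec1 was 0.191 times (0.133 to 0.273) the ratio at Adam7. In rescue against deleted these figures were 2.74 (1.98 to 3.78) and 3.76 (2.71 to 5.24). These values describe the libraries in which Adam28 was picked and support no order among the genes. In rescue against floxed, the ratio at Adam28 was 1.55 times (1.31 to 1.85) that at Adamdec1, and that at Adamdec1 was 0.718 times (0.545 to 0.944) that at Adam7. Adam28 and Adam7 were not distinguished there, at 1.12 (0.873 to 1.42).

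H3K4me3 was near 0 at all 3 genes. This mark was counted in one short window per gene, of the same length at nearly all genes, whose position was not given in the sources used here. Adam28 had 0 counts in rescue, 0 in deleted and 4 in floxed. Adamdec1 had 2, 1 and 0 and Adam7 had 1, 1 and 0. No ratio is given, because none of the 3 genes averaged 20 counts. Taken as a one-sided limit, a count of 0 at Adam28 allows up to 3 counts, or 7.59 CPM in rescue and 7.13 CPM in deleted; the exact two-sided intervals reach 9.34 and 8.77 CPM. The median window among the 6681 measured for H3K4me3 held 127 CPM in rescue, 124 in deleted and 126 in floxed. Summed over the libraries, the median of all named windows was 3 counts, and 56.6% of them had no more than the 4 counts of Adam28. No gain of H3K4me3 was seen at the counted windows in the deleted library, where the intervals of Adamdec1 and Adam7, with 1 count each, reach 13.2 CPM. Levels below these limits would not be seen at this depth.

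Flanking genes were read along the chromosome on both sides. Within 1 Mb on either side 19 named genes were counted, and 10 of them were measured for H3K27me3. The nearest measured gene on the Adam7 side was A230070E04Rik, 366 kb away, with 169 counts in rescue, 72 in deleted and 92 in floxed. It overlaps Nefm, which with Nefl beyond it encodes neurofilament subunits. Nefl had 306, 134 and 159 counts, and its deleted to floxed ratio was 0.812 (0.641 to 1.03). For Nefm, with 102, 68 and 63 counts, it was 1.04 (0.728 to 1.49). At A230070E04Rik it was 0.754 (0.546 to 1.04). None of the 4 measured genes on this side, the guanine nucleotide exchange factor gene Dock5 included, met the size rule in any comparison. In rescue over deleted, the interval lay above 1 at A230070E04Rik, 1.42 (1.07 to 1.89), and at Nefl, 1.38 (1.12 to 1.7). It included 1 at Nefm, 0.905 (0.659 to 1.25), and at Dock5, 1.16 (0.762 to 1.78).

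On the Adam28 side the nearest measured gene was Stc1, 373 kb away, which encodes the glycoprotein hormone stanniocalcin 1. It had 406 counts in rescue, 253 in deleted and 255 in floxed, with ratios of 0.957 (0.801 to 1.14) for deleted over floxed and 0.968 (0.825 to 1.14) for rescue over deleted. Its density, 7.97, 8.24 and 8.61 CPM per kb, was close to that of Adam28 in rescue and held in all 3 libraries. No counted gene with a position lies between Adam28 and Stc1, so gene counts do not resolve how far the difference reached on this side. Adam28 and Adamdec1 met the rule, and neither Adam7 nor the nearest measured gene on each side did.

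Further out on the Adam28 side, Nkx2-6, Gm21451 and Loxl2 were lower in deleted against floxed, with log2 ratios between -0.99 and -0.79, beside -2.06 at Adamdec1. The homeobox gene Nkx2-6 had 497 counts in rescue, 175 in deleted and 293 in floxed, a ratio of 0.576 (0.475 to 0.697). Counts of 1700092C10Rik, whose end overlaps Nkx2-6, were 398, 199 and 281, and its ratio of 0.683 (0.566 to 0.822) did not meet the rule.

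Loxl2, which encodes a lysyl oxidase that crosslinks collagen, and the predicted gene Gm21451 were lower in deleted as well. In the rescue library they lay above the floxed one too. Loxl2, 953 kb from Adam28, had 1253 counts in rescue, 167 in deleted and 306 in floxed, which gives 0.526 (0.433 to 0.637) for deleted over floxed and 2.38 (2.10 to 2.71) for rescue over floxed. Gm21451 had 1003, 172 and 331 counts, with 0.501 (0.414 to 0.604) and 1.76 (1.55 to 2.00). Synb, Gm16677, Entpd4, Gm21464 and Gm21685, which lie among them, were listed at 0 in all 6 histone libraries, and where genes in this stretch have near-identical copies their counts are uncertain. The span of Gm21464 contains that of Gm21451, so the 0 at Gm21464 cannot be read as an absence of the mark. Nkx2-6, Gm21451 and Loxl2 were also the 3 flanking genes, of 10 measured, higher in rescue against deleted. Of all measured genes 7.07% were higher there, and 5.39% were lower in deleted against floxed. The 10 had a median log2 ratio of -0.49 in deleted against floxed and 0.44 in rescue against deleted. Over all measured genes these medians were 0.02 and -0.06.

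**Figure D4:**
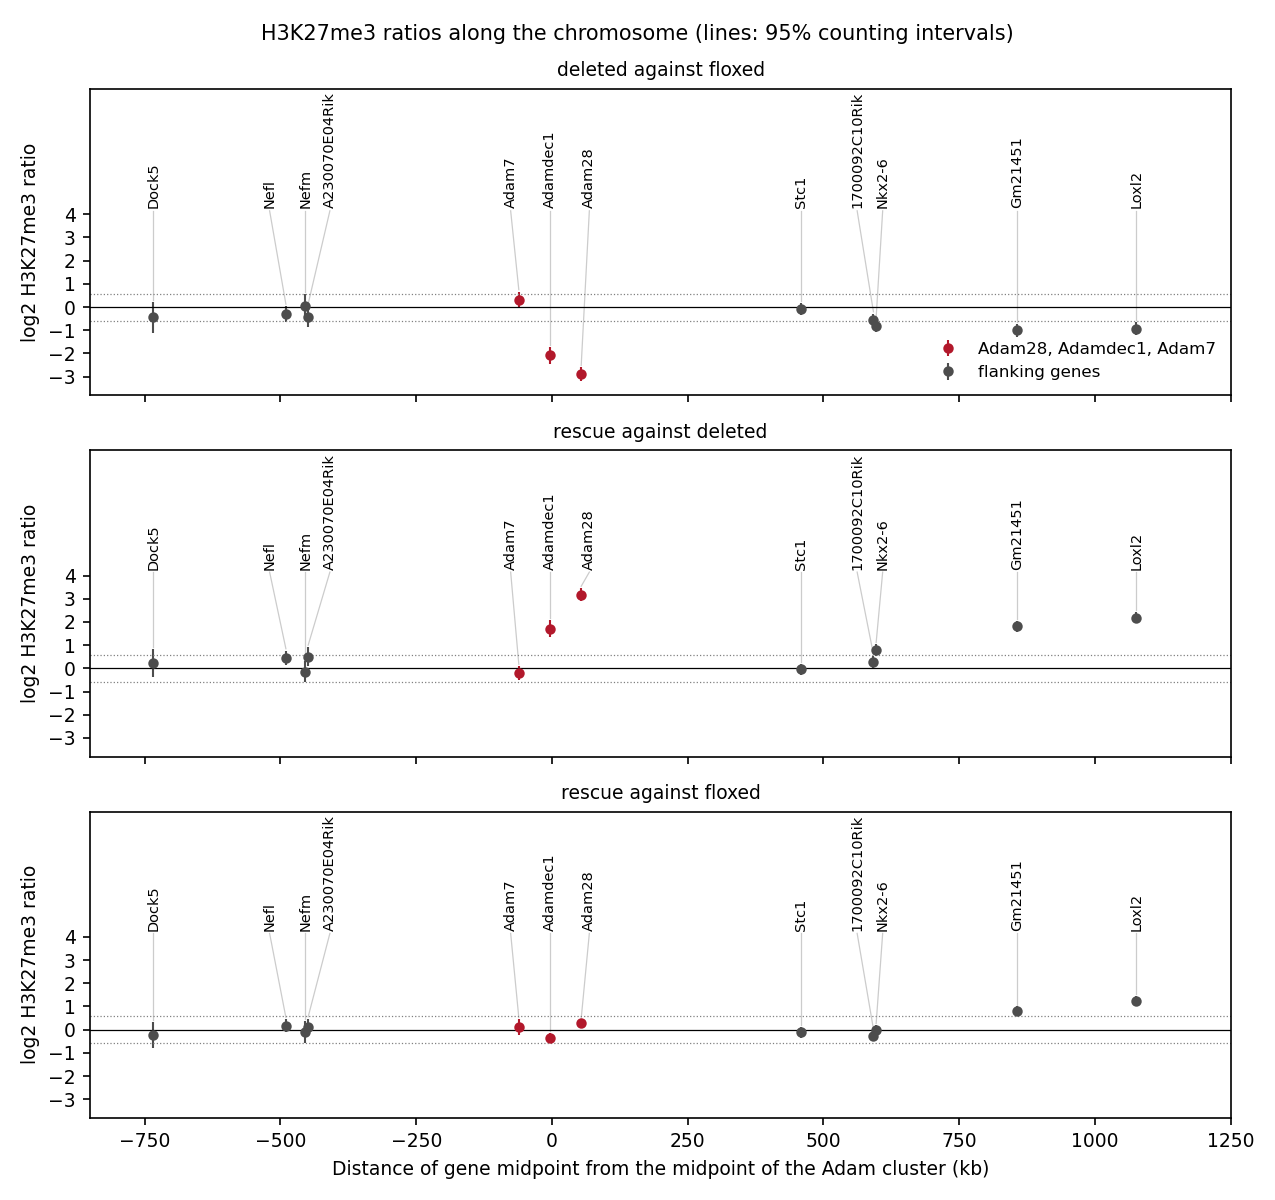
Log2 H3K27me3 ratios of the measured genes named in the text within 1 Mb of the Adam cluster against the distance of the gene midpoint from the cluster midpoint (kb), in 3 comparisons; red, Adam7, Adamdec1 and Adam28; grey, flanking genes; lines, 95% counting intervals; dotted lines, a ratio of 1.5 in either direction. In deleted against floxed Adamdec1 and Adam28 lay far below Adam7 and Stc1, with ratios of 0.237 and 0.135 against 1.24 and 0.957.

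Among flanking genes with H3K4me3, Kctd9 had 29 counts in rescue, 30 in deleted and 63 in floxed, and its deleted to floxed ratio was 0.730 (0.456 to 1.15). That interval includes 1.

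Pairs of neighbours that were lower together, as Adam28 and Adamdec1 were, were also counted over the whole genome. Among 8675 measured genes with a non-overlapping measured gene within 100 kb, the nearest one was lower in deleted against floxed in 5.80%. Among the 492 genes that were themselves lower, it was in 18.3%, or 90 genes. These shares are given as a description, because pairs are counted from both sides.

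No Flag summit lay inside the cluster or within 10 kb of it in any library. The nearest summit in the rescue list was at position 68473179 on chromosome 14, 24.2 kb from Adam7 and inside the span of the lncRNA gene Gm31227. It had a score of 12.89, rank 51 of 429 by the authors' score. The floxed line, which has no tagged protein by its label, had a summit 27 bp away, with a score of 7.59 and rank 127 of 475. In the deleted list of 220 summits the nearest lay 13182 kb away. Of the rescue summits, 43.4% had a floxed summit within 100 bp, as this one did, and 31.2% a deleted one.

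Of 50 other ADAM and ADAMTS genes, 32 were measured for H3K27me3. None of them was lower in deleted against floxed and 2 were higher, beside 5.39% lower and 4.72% higher of all measured genes. The list median was 0.15 on the log2 scale, beside 0.02 for all measured genes. The 2 were Adam9, a widely expressed sheddase gene with 39 counts in rescue, 23 in deleted and 8 in floxed, and the testis gene Adam29, with 81, 45 and 26. Of the 32, 1 was lower in rescue against deleted, the testis gene Adam18 with a ratio of 0.622 (0.483 to 0.802), and 1 higher, Adam23. Adam23, which encodes a catalytically inactive adhesion protein of the brain, had 985 counts in rescue, 188 in deleted and 140 in floxed. Its ratio was 3.16 (2.70 to 3.71) in rescue against deleted and 4.09 (3.42 to 4.92) in rescue against floxed. In rescue against floxed 3 of the 32 were higher, Adam23, Adam9 and Adam29, and 1 was lower, Adamts1, at 0.644 (0.526 to 0.789). Of all measured genes, 11.3% were lower and 7.07% higher in rescue against deleted, and 8.05% and 5.72% in rescue against floxed. Nothing is read from the list counts, which are small. The list medians were -0.08 in rescue against deleted and 0.03 in rescue against floxed, beside -0.06 and -0.05 for all measured genes.

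Of 12 genes for partners and substrates of ADAM28 and for metalloproteinase inhibitors, 7 were measured for H3K27me3. In deleted against floxed 1 was lower, the inhibitor gene Timp2, with 122 counts in rescue, 57 in deleted and 103 in floxed at 0.534 (0.379 to 0.744). Another was lower in rescue against deleted, the integrin gene Itgb7, which had 183, 190 and 159 counts, at 0.581 (0.472 to 0.716). None was called in rescue against floxed, where 8.05% of all measured genes were lower and 5.72% higher. The shares lower were 5.39% in deleted against floxed and 11.3% in rescue against deleted. Nothing is read from these list counts. The list medians were 0.16, -0.30 and -0.19 on the log2 scale in deleted against floxed, rescue against deleted and rescue against floxed. Itga4 and Itgb1, which encode the integrin bound by ADAM28, had 37 and 63 H3K4me3 counts in rescue, 48 and 64 in deleted and 66 and 103 in floxed.

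Among 5785 genes averaging 100 or more counts, the gene closest to Adam28 in its pair of log2 H3K27me3 ratios, deleted over floxed and rescue over deleted, was Ppef2, at a Euclidean distance of 0.11. Ppef2, a phosphatase gene of photoreceptors on chromosome 5, had 1567 counts in rescue, 105 in deleted and 815 in floxed, close to the 1607, 108 and 774 of Adam28. Next came Btnl5-ps at 0.47, Igf2r at 1.02, Airn at 1.06 and Tmem198 at 1.11. Igf2r and Airn overlap, and whether they share counts was not checked. Adamdec1 ranked 13 of 5784, at 1.67, and Adam7 ranked 4660, at 4.63. The likeness rests on 3 libraries.

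Ppef2 and Adam28 differed in density, with 14.2, 1.58 and 12.7 CPM per kb of H3K27me3 at Ppef2 in rescue, deleted and floxed. Both had almost no H3K4me3, with 1, 2 and 1 counts at Ppef2. Tmem198, by contrast, had 38, 59 and 87 H3K4me3 counts.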

How the data were processed

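ChIP-seq of H3K27me3, H3K4me3 and Flag was analysed in 3 lines, 1 library each. The histone files deposited by the authors give a raw count and a length for each gene. Tools named in the submitters' processing notes are featureCounts and MACS2, with the build mm10; an aligner was not given in the sources used here. For Flag the authors deposited summits, each with a score whose kind is not stated; it was used only to rank or filter within a list. No input was used.

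Totals leave out 568 rows with no symbol, which held 0.608% to 0.739% of counts. Positions came from RefSeq (GRCm38.p6) by Entrez identifier, for 25271 of 26611 named genes. No sequence of the members was used here.

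Ratios are CPM ratios with exact conditional binomial (Clopper-Pearson) intervals; log2 ratios, list medians and likeness add a prior count of 1, scaled to library size. Ratios of ratios have exact conditional odds-ratio intervals. edgeR's quasi-likelihood test could not be fitted with 1 library per group. The rule was tried on simulated counts that held counting error only, so the trial does not cover the spread between cultures.

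The members and lists were chosen with earlier results of these data known. Named genes are the members, flanking genes that met the rule plus the nearest measured one on each side, up to 4 called genes per list and the 5 genes most like Adam28; Nefl, Nefm, Dock5, Kctd9 and 1700092C10Rik, the flanking genes listed at 0, Adamts1, Itga4, Itgb1, Hhex and single markers were named after their values were seen. A flanking gene is not reported here. Alternatives were scaling by edgeR TMM factors, median-of-ratios size factors, 30 housekeeping genes or all rows, a mean of at least 100 counts, no filter, and a 2-fold rule. Software was Python 3.11.15, scipy 1.17.1, R 4.3.3 and edgeR 4.0.16.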

Additional observations from a re-analysis of the deposited data

How the results depend on the processing

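Of 63 recomputed member ratios of H3K27me3, 59 kept their direction and their side of the size rule, all those of Adam28 and Adamdec1 in deleted against floxed and rescue against deleted among them. The other 4 came from housekeeping scaling, which rests on few counts: in rescue against floxed Adam28 was at 0.873 and Adam7 at 0.782, both on the other side of 1, Adamdec1 met the rule at 0.561, and Adam7 met it in rescue against deleted at 0.643. The cause was not tested. Part of the 59 could not have changed. The filters and the fold leave a ratio as it is, so its direction was fixed under those settings. The members averaged 167 (Adam7), 269 (Adamdec1) and 830 (Adam28) H3K27me3 counts and passed every filter. The filters therefore could not change their side of the rule either. A stricter fold could change only that side. The ratios themselves were checked by the scalings alone. Per kb in place of counts, Adam28 held 53.0% (rescue), 20.5% (deleted) and 43.6% (floxed) of the signal of the 3 genes. In the same order Adamdec1 held 36.8%, 38.9% and 47%, and Adam7 held 10.2%, 40.6% and 9.35%.

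Counts over all genes moved with the filter and the fold, by construction. In deleted against floxed there were 324 lower and 107 higher genes at a mean of at least 100 counts, 145 and 177 with a 2-fold rule, and 840 higher with no filter. In rescue against deleted these were 384 and 430, 484 and 323, and 1149, and housekeeping scaling gave 4048 and 260. In rescue against floxed they were 268 and 276, 319 and 289, and 1000, and housekeeping scaling gave 4063 and 198.

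With a 2-fold rule 0 flanking genes were lower in deleted against floxed and 1 higher in rescue against floxed; housekeeping scaling gave 3 lower and 1 higher in rescue against floxed. Of other ADAM and ADAMTS genes, 1 was higher in deleted against floxed with median-of-ratios factors, housekeeping scaling or a 2-fold rule, and 0 at 100 counts. Lower in rescue against deleted were 15 with housekeeping scaling and 0 with a 2-fold rule. In rescue against floxed 7 were lower with housekeeping scaling and 0 with TMM or a 2-fold rule, and 5 higher with TMM and 1 with housekeeping scaling or at 100 counts. Of the partner and inhibitor list, 0 were lower in deleted against floxed at 100 counts or 2-fold and 1 higher with no filter. In rescue against deleted 4 were lower with housekeeping scaling and 0 at 2-fold, and in rescue against floxed 4 were lower with housekeeping scaling and 1 higher with no filter. Within 10 kb there were 0 Flag summits in rescue and floxed, and with a score of at least 10 there were 0 in floxed. Ranked among genes averaging 20 counts, Adam28 kept 4 of its 5 most like genes, and Cdkn2b at a distance of 0.57 took the place of Tmem198.

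The planned H3K4me3 alternatives were not run. No member had enough H3K4me3 counts for a ratio, and the H3K4me3 ratios at Elane and Kctd9 were not checked under other settings. No paired analysis was possible because each group has 1 library. With 1 library a group, counting error is the one error that can be given, and the spread between cultures is unknown.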
